A study of Sus scrofa with 22 samples.

Results

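The genes of prostaglandin (PG) synthesis, transport and breakdown were followed through 3 cell types of the porcine endometrium, the epithelium of the lumen (LE), that of the glands (GE) and the stroma (S). They were chosen by name, as the 10 genes PLA2G4A, PTGS1, PTGS2, PTGES, PTGES2, PTGES3, AKR1B1, HPGD, SLCO2A1 and ABCC4. Of these, 9 were among the 12401 genes listed in at least 1 of the 3 count tables, and 8 were listed for all 3 cell types. PTGS1 was listed in no table and PTGES2 only for LE and S, so that their counts in the remaining tables are not analysed here. The 22 RNA-seq libraries came from 8 prepuberal crossbred gilts (German Landrace and Piétrain), all given PMSG and then hCG to synchronize ovulation. The 4 pregnant gilts were inseminated with German Landrace semen, and the 4 cyclic control gilts with the supernatant left after semen from that boar had been centrifuged. On Day 12 the endometrium was frozen, stained sections were cut by laser capture microdissection (LCM), and total RNA of each cell type was amplified from a very small input. Each of the 8 gilts gave 1 LE and 1 GE library, and 3 pregnant and 3 control gilts gave an S library as well. Gilts are named below by their number in the labels. The study describes its stromal samples as mixtures, with fibroblasts and mostly immune cells beside them.

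Prostaglandins are made from arachidonic acid, which cytosolic phospholipase A2 (PLA2G4A) frees from membrane lipids and the cyclooxygenases (PTGS1, PTGS2) convert to the unstable intermediate PGH. Terminal synthases then make PGE (PTGES, PTGES2, PTGES3) or PGF (AKR1B1, an aldo-keto reductase with PGF synthase activity), ABCC4 exports the products, SLCO2A1 takes them up from outside the cell, and HPGD inactivates them. In the pig, PGF from the uterus ends the life of the corpus luteum in the cycle, and around the time of maternal recognition of pregnancy the balance of PGE and PGF and the side to which they are secreted are central to luteal maintenance.

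The start regions of 4 genes are shown, since AKR1B1, HPGD and SLCO2A1 were the members whose counts changed with pregnancy and the PTGS2 start is shared with transcript models of PLA2G4A. The windows hold 250 bases before and 50 bases after the start of the curated RefSeq transcript in Sscrofa11.1 and are written 5′ to 3′ on the strand of the gene. Capitals mark each match, on either strand, to the TATA box TATAAA, the CCAAT box, the GC box GGGCGG, the E-box CACGTG, the AP-1 site TGANTCA, the cAMP response element TGACGTCA or the nuclear receptor element AGGTCA.
AKR1B1, chr18:14733842-14734141, plus strand: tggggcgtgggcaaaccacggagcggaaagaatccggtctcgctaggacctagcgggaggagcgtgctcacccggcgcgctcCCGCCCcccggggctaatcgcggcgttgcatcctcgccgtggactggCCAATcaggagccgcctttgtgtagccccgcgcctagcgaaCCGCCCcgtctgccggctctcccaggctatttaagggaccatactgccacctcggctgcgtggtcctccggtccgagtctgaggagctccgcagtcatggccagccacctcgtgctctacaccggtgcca
HPGD, chr14:15718479-15718778, plus strand: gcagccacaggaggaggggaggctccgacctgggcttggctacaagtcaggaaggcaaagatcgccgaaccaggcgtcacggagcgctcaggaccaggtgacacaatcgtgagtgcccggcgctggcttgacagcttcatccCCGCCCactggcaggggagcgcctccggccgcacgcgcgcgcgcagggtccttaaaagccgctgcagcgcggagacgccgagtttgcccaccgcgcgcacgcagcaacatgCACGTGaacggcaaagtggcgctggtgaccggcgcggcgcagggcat
PTGS2, chr9:127858817-127859116, minus strand: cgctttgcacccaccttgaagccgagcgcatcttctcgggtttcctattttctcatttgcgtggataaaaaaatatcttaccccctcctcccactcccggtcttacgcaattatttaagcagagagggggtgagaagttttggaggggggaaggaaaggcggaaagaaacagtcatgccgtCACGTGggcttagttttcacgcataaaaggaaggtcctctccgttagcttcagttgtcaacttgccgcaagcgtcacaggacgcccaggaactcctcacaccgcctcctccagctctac
SLCO2A1, chr13:75189611-75189910, minus strand: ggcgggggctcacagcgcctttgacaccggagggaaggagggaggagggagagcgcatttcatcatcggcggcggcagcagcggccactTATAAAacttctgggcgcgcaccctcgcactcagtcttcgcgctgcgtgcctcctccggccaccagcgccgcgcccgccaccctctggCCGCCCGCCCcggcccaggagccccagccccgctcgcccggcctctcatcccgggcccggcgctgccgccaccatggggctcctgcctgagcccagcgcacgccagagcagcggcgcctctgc
AKR1B1 had the CCAAT box 121 bases before the start, a match found in 35.3% of 20653 protein-coding start windows, and the GC box on the opposite strand 168 and 80 bases before it, a motif in 49.1% of windows. HPGD had the GC box on the opposite strand 108 bases before the start and the E-box at position 4 after it, a motif in 7.50% of windows. PTGS2 had a single match, the E-box, 69 bases before the start. In SLCO2A1, the TATA box stood 161 bases before the start, against 11.7% of windows with this motif, and 2 overlapping GC box matches lay on the opposite strand at 73 and 69 bases. The AP-1 site, the cAMP response element and the nuclear receptor element, found in 6.28%, 2.14% and 14.1% of windows, had no match in these 4 sequences. The curated transcripts of HPGD and SLCO2A1 begin with the bases of a start codon, so that the bases after the start in their windows can be coding sequence. Distances in these 2 windows are counted from that codon and may not be distances from the start of transcription. The gene models of HPGD and AKR1B1 also begin upstream of the curated starts used here, at positions 15718261 and 14593516. Of the 9 transcript models of PLA2G4A, 2 started 9 bases beyond the PTGS2 start on the opposite strand of chromosome 9, 4 inside PTGS2, and 3 further downstream, from position 128000398 on.

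Before the values, the labels were compared with marker genes, and they did not separate the cell types. Totals on listed genes were between 893912 and 4020796 counts per library (median 2982917.5). The summed level of 10 epithelial markers (CPM, counts scaled to a fixed library total) was 2923 to 3554 in control S, 3139 to 3889 in control LE and 843 to 2532 in control GE. KRT8, an epithelial keratin, lay between 775 and 924 CPM in control S and between 200 and 675 CPM in control GE. Conversely, 10 fibroblast markers summed to 5323 to 9376 CPM in control S and to 13009 to 18953 CPM in control LE. Over 10643 genes the mean profile of control S was most like that of control LE (Pearson r = 0.964), and that of pregnant S most like pregnant GE (r = 0.976), with each of the 3 pregnant S libraries most like the GE library of its own gilt. These are therefore called the libraries labelled S, and differences that involve them may not be differences of stroma. Since the LE and GE libraries held fibroblast markers as well, their levels may likewise not be those of epithelium alone. By these markers the S library of pregnant gilt 01 went with its label, with the highest fibroblast sum of the 22 libraries (64852 CPM) and the lowest epithelial sum of the S libraries (1257 CPM), whereas those of gilts 05 and 14 had 9010 and 12396 CPM of fibroblast and 4439 and 2491 CPM of epithelial markers. Fibroblast markers were also high in GE of control gilt 02 (48462 CPM) and in GE and LE of gilt 01 (32267 and 24987 CPM). The GE library of control gilt 06 was most like LE of the same gilt (r = 0.950), above its best correlation within control GE (r = 0.921). For the members, and for further genes called in a cell type, results are given without each gilt where that changed the call.

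**Figure D1:**
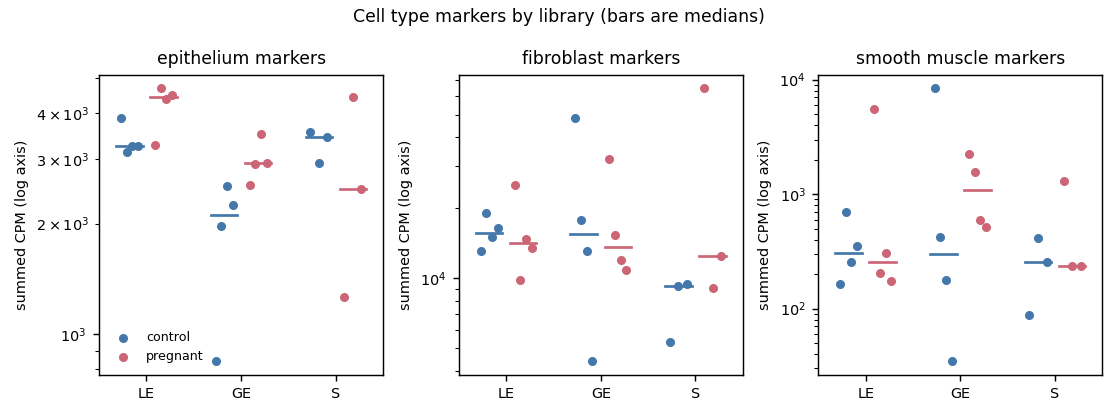
Summed CPM of epithelial, fibroblast and smooth muscle markers (log axes) in each of the 22 libraries by cell type, with control libraries in blue, pregnant libraries in red and bars at the medians. Epithelial markers in control S (2923 to 3554 CPM) lay at the level of control LE (3139 to 3889 CPM).

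Across genes, levels were compared as CPM per kb of exon. In control LE, PTGS2 (129 ± 53.1, SD over 4 libraries), AKR1B1 (120.3 ± 58.5) and HPGD (91.8 ± 12.0) formed the top of the order, and their ranges overlapped. PTGES3 (51.4 ± 3.78) and ABCC4 (44.0 ± 5.71) followed, then PLA2G4A (33.6 ± 2.52) and PTGES (31.3 ± 7.41), then SLCO2A1 (9.47 ± 4.83) and PTGES2 (5.94 ± 1.82), with overlap inside each of these pairs and none between them. The range of AKR1B1 (37.4 to 172) took in those of PTGES3 and ABCC4 and just met that of PTGES. In pregnant LE, AKR1B1 stood at 4522 ± 2821 CPM per kb, above the range of every other member and 4th of the 10643 genes listed in all tables, against 369th in control LE. HPGD went from the 503rd to the 5102nd place in the same comparison, at 11.5 ± 12.4 CPM per kb in pregnant LE. Control GE had the flattest order, from PTGES3 (55.5 ± 3.11) to PTGES (9.17 ± 9.58), and every pair of neighbours overlapped. AKR1B1 was the highest member in pregnant GE too (678 ± 453), with no overlap to PTGES3 (60.9 ± 5.44), and in the pregnant libraries labelled S (943 ± 1237, n = 3). In control S the order began as in LE with PTGS2 (185 ± 130), AKR1B1 (91.2 ± 53.8) and HPGD (77.9 ± 23.3).

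**Figure D2:**
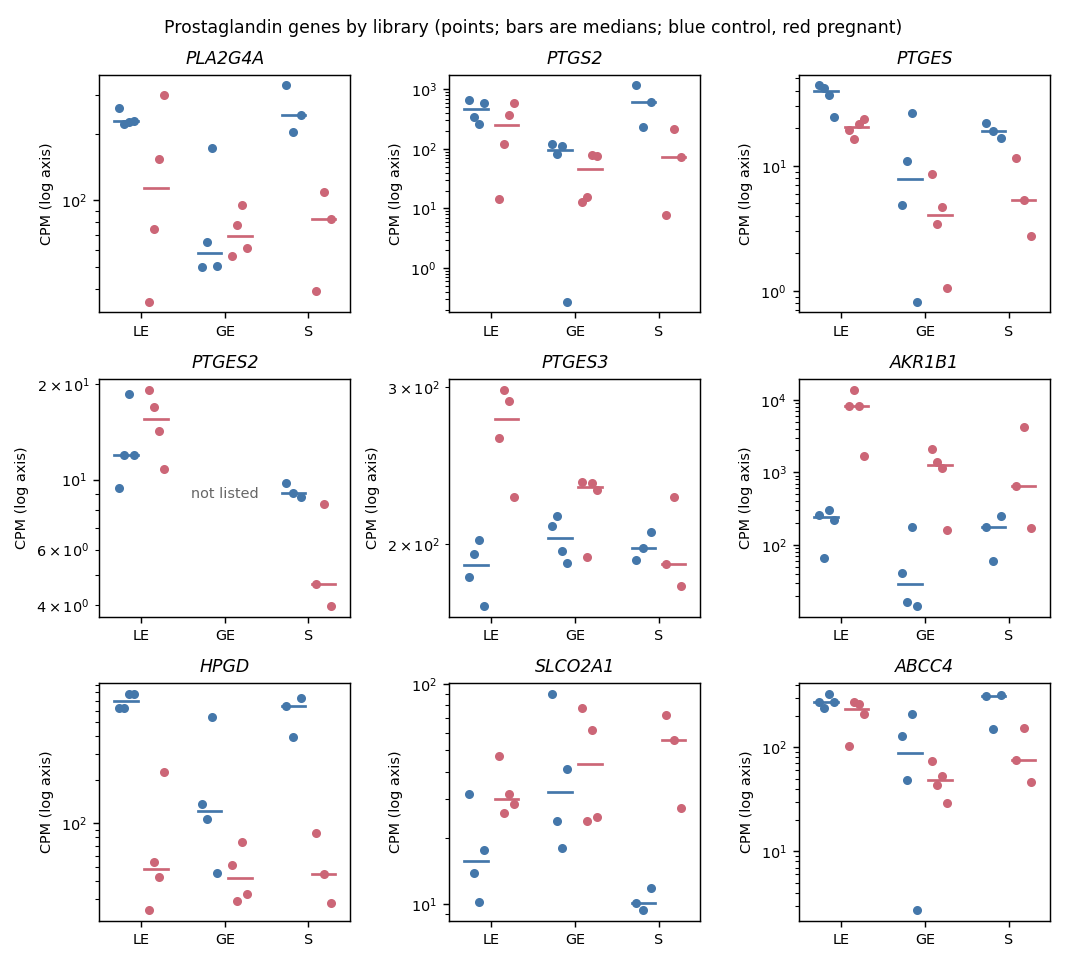
CPM (log axes) of the 9 listed members in each library by cell type, control in blue and pregnant in red, with bars at the medians. AKR1B1 in pregnant LE (1661 to 13813 CPM) and HPGD in pregnant LE (25.3 to 228 CPM) lie apart from their controls, while PTGS2 spreads from 14.5 to 581 CPM among pregnant LE libraries.

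For each cell type, pregnant and control libraries were compared with the quasi-likelihood test of edgeR. The threshold for a call was a false discovery rate (FDR) of 0.01 in LE, whereas in GE and S it was an unadjusted p of 0.0021, so that calls there can have a high FDR. In LE 2 of 9 members were called, against 10.0% of all genes tested. AKR1B1 rose and HPGD fell. None of 8 members was called in GE, where 0.694% of all genes were. An unadjusted p below 0.05 was found for 2 members and for 945 of the 11676 genes. The exact test and the likelihood ratio test each called 1 member (174 and 185 of all genes), and DESeq2 called 2 (241 of all genes). In the libraries labelled S, 2 of 9 members were called against 1.47% of all genes, with SLCO2A1 higher and HPGD lower in pregnant gilts. Pregnant and control libraries did not overlap for 4 of 9 members in LE (26.7% of all genes), 0 of 8 in GE (4.97%) and 6 of 9 in S (17.4%). The median log2 fold change (FC, pregnant minus control) of the members was −0.40 in LE, −0.50 in GE and −1.47 in S, beside 0.01, −0.02 and 0.08 over all genes. In captured tissue, a lower level can come from fewer cells of a type or from less RNA per cell, and these cannot be told apart here.

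**Figure D3:**
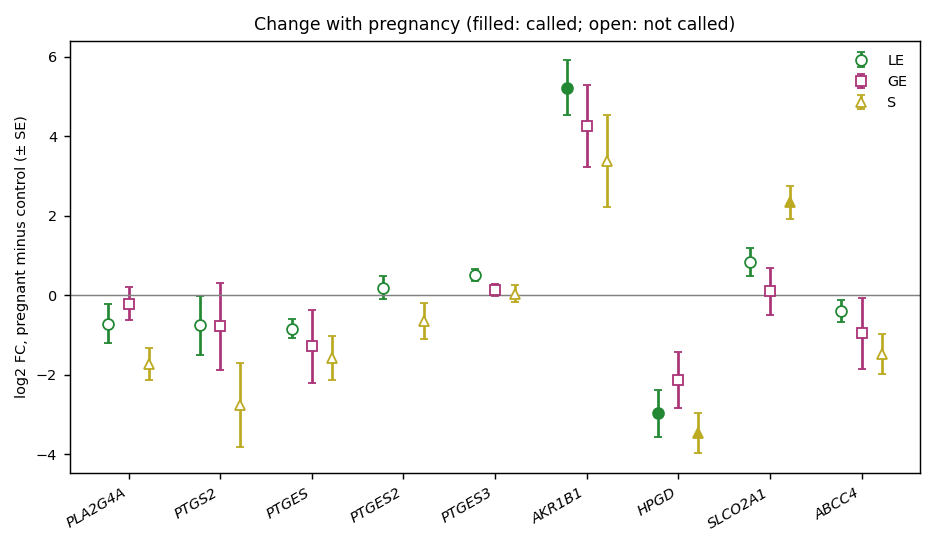
Log2 FC of each member (pregnant minus control, error bars ± SE) in LE (circles), GE (squares) and S (triangles), with filled symbols for called changes and the line at 0 for no change. AKR1B1 lies above and HPGD below the other members in each cell type.

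PLA2G4A, which releases the substrate, was not called in any cell type. In LE its levels were 260.2, 221, 227 and 229 CPM in the control gilts 02, 04, 06 and 13, and 34.9, 74.3, 154 and 298 CPM in the pregnant gilts 01, 03, 05 and 14. The controls were close together, whereas the pregnant libraries spread over a wide range that enclosed them (log2 FC −0.72 ± 0.49 SE, FDR = 0.33). Control libraries labelled S held 331, 203 and 244 CPM (gilts 02, 04 and 13) and the pregnant ones 38.8, 109 and 82.4 CPM (gilts 01, 05 and 14). Here the groups did not overlap, but the difference missed the threshold (log2 FC −1.72 ± 0.40, FDR = 0.16). The exact test of edgeR (p = 0.0002), its likelihood ratio test and DESeq2 put it past the threshold. GE libraries were between 50.3 and 172 CPM in control and between 56.2 and 94.8 CPM in pregnant gilts.

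PTGS2, the inducible cyclooxygenase, varied widely between gilts of the same group and was not called in any cell type. Its LE levels were 661, 340.4, 267 and 596 CPM in the controls and 14.5, 123, 376 and 581 CPM in the pregnant gilts 01, 03, 05 and 14. Gilts 05 and 14 were thus within the control range and gilts 01 and 03 below it (log2 FC −0.75 ± 0.74, FDR = 0.51). In GE the control levels were 122, 82.0, 113 and 0.274 CPM, the last being a single count in gilt 13, and the pregnant levels 12.7, 15.3, 79.8 and 75.1 CPM (log2 FC −0.78 ± 1.09, FDR = 0.88). The libraries labelled S held 1167, 237 and 606 CPM in control gilts 02, 04 and 13 and 7.76, 214 and 72.3 CPM in pregnant gilts 01, 05 and 14. All pregnant values were below the control values there, and the change was not called (log2 FC −2.76 ± 1.05, FDR = 0.35). Gilt 01 had the lowest PTGS2 of the pregnant gilts in each of the 3 cell types, and also the highest fibroblast marker sum in each (24987, 32267 and 64852 CPM in LE, GE and S, against 9010 to 15206 CPM in the other pregnant libraries). The part of fibroblasts in the PTGS2 level was not tested. PTGS2 and PLA2G4A are neighbours on chromosome 9 (127850164-127858866, minus strand, and 127853581-128164825, plus strand), their exons overlap by 108 bases, and 1.89% of the 50-base windows of PTGS2 exons occur in PLA2G4A. Whether reads were counted by strand is not given in the sources used here, so a few reads of this stretch could belong to either gene.

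Among the PGE synthases, no change was called. PTGES, the inducible microsomal enzyme, had 44.0, 41.9, 36.7 and 24.6 CPM in control LE and 19.3, 16.5, 21.6 and 23.8 CPM in pregnant LE. The groups did not overlap, though gilt 13 and gilt 14 nearly met (log2 FC −0.85 ± 0.24, FDR = 0.029). In the libraries labelled S, PTGES was at 21.8, 19.1 and 16.5 CPM in control and 11.6, 5.36 and 2.76 CPM in pregnant gilts (log2 FC −1.58 ± 0.55, FDR = 0.32), and without gilt 01 it just passed the threshold (log2 FC −2.25). GE had less of it, 0.821 to 26.5 CPM in control and 1.06 to 8.61 CPM in pregnant gilts, with as few as 3 counts in a library. PTGES3, the cytosolic PGE synthase that is also a co-chaperone of HSP90, was the steadiest member. Its control LE libraries held 184, 195, 202 and 171 CPM and the pregnant ones 263, 298, 289 and 226 CPM. All pregnant values were higher, by a small step that did not reach the threshold (log2 FC 0.51 ± 0.15, FDR = 0.036) and that DESeq2 called. In GE and S the differences were 0.14 ± 0.16 and 0.03 ± 0.22 on the log2 scale. PTGES2, the second membrane-bound enzyme, was low, with 9.40 to 18.7 CPM in control and 10.8 to 19.3 CPM in pregnant LE, and 8.82 to 9.75 against 3.98 to 8.37 CPM in S.

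AKR1B1, which reduces PGH to PGF, rose in LE from 257, 65.8, 303 and 221 CPM in the controls to 8118, 13813, 8264 and 1661 CPM in the pregnant gilts 01, 03, 05 and 14. Every pregnant library exceeded every control. The log2 FC was 5.22 ± 0.69 (FDR = 0.00069), the 54th largest increase of 11415 genes, and the call held without any one gilt (log2 FC 4.82 to 5.56). In GE the levels were 41.0, 16.4, 177 and 14.5 CPM in control gilts 02, 04, 06 and 13 and 2092, 1391, 1128 and 163 CPM in pregnant gilts. Control gilt 06 and pregnant gilt 14 overlapped, and the change of 4.25 ± 1.03 just missed the threshold (FDR = 0.32). It was called without gilt 06 (log2 FC 5.65), whose GE library was the one most like LE, or without gilt 14 (4.61), and in the full set by the exact test (p = 2.43e-05), the likelihood ratio test and DESeq2. The libraries labelled S held 175, 59.4 and 247 CPM in control gilts and 649, 4160 and 173 CPM in pregnant gilts 01, 05 and 14. Gilt 14 lay inside the control range there, and the difference of 3.38 ± 1.16 was not called (FDR = 0.31), except by the likelihood ratio test and DESeq2. Without single gilts it lay between 1.41 and 3.92. The S library of gilt 05, with the highest AKR1B1 of the 3, also had the highest epithelial marker sum of the pregnant S libraries, 4439 against 1257 and 2491 CPM, and the part of this in the AKR1B1 level was not tested. None of the 50-base windows of AKR1B1 exons occurs in another annotated exon.

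HPGD, which starts the inactivation of PGE and PGF, fell in LE and in the libraries labelled S. Control LE held 619.7, 622, 775 and 783 CPM, and pregnant LE 25.3, 54.2, 42.6 and 228 CPM in gilts 01, 03, 05 and 14. The groups were far apart, with gilt 14 the nearest to the controls. The log2 FC was −2.97 ± 0.59 (FDR = 0.0059), the 78th largest decrease of 11415 genes. This call was near the threshold and was lost without gilt 02, 04, 06, 13, 03 or 05 while it kept its direction, with a log2 FC between −4.08 and −2.69 over all 8 fits. Control libraries labelled S held 648, 396 and 738 CPM and the pregnant ones 85.4, 44.5 and 28.2 CPM. None overlapped, and the decrease of −3.47 ± 0.51 was called in the full fit (FDR = 0.064) and without any one gilt. In GE the control levels were 136, 108, 542 and 45.7 CPM and the pregnant levels 51.7, 29.1, 74.5 and 32.6 CPM. The groups overlapped through control gilt 13, and the log2 FC of −2.14 ± 0.71 was not called (FDR = 0.47), whereas DESeq2 put it past the threshold. The highest control level, 542 CPM, was that of gilt 06, whose GE library was the one most like LE. Over the fits without single gilts the log2 FC in GE lay between −2.48 and −1.03, and none called it. HDC, one of the 2 mast cell markers listed in all tables and also an enzyme of other cells, was lower in the same comparisons, with 69.2 to 164 CPM in control and 0 to 8.55 CPM in pregnant LE and 66.7 to 105 against 7.03 to 11.03 CPM in S. KIT, the other one, overlapped between the groups (16.6 to 41.0 and 5.70 to 32.5 CPM in LE), TPSB2, CPA3 and FCER1A were not matched in the tables and MS4A2 was listed for GE only. The part of mast cells in the HPGD levels was not tested.

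The ratio of AKR1B1 to HPGD, each in CPM per kb of exon, sets the mRNA of a PGF synthase beside that of an enzyme inactivating PGE and PGF. In control gilts it was 1.80, 0.458, 1.69 and 1.22 in LE, 1.31, 0.658, 1.42 and 1.37 in GE and 1.17, 0.650 and 1.45 in S. Control libraries therefore lay near a ratio of 1 whatever the cell type, although the levels of the single genes differed between them. The ratio depends on the exon lengths used, 1761 bases for AKR1B1 and 7625 bases over 7 transcripts for HPGD, so its nearness to 1 does too. Among pregnant gilts it was 1390, 1104, 840.3 and 31.6 in LE (gilts 01, 03, 05 and 14), 175, 207, 65.6 and 21.6 in GE, and 32.9, 405 and 26.5 in S (gilts 01, 05 and 14). All pregnant libraries exceeded all control libraries, including those of GE, in which neither gene alone separated the groups. Gilt 14 had the lowest ratio in each cell type. The ratio is a description of genes already tested above and was not tested again. It joins the members with the highest and the lowest log2 FC, so its separation of the groups adds no further support. Whether other pairs of genes separate the GE groups in this way was not examined.

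**Figure D4:**
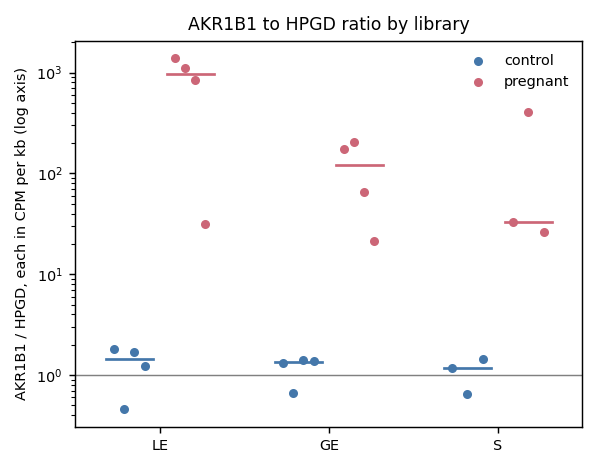
Ratio of AKR1B1 to HPGD (each in CPM per kb of exon, log axis) in each library by cell type, control in blue and pregnant in red, with bars at the medians and a line at 1. Control libraries lie between 0.458 and 1.80, pregnant libraries between 21.6 and 1390.

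Of the transporters, SLCO2A1 rose in the libraries labelled S, from 10.1, 9.39 and 11.8 CPM in control gilts 02, 04 and 13 to 72.2, 55.6 and 27.3 CPM in pregnant gilts 01, 05 and 14. The controls were tight and low, at 26 to 32 counts, and no pregnant library came near them. The log2 FC was 2.34 ± 0.42 (FDR = 0.10), and the call was lost without gilt 02, 04, 13 or 05 (log2 FC 2.25 to 2.44). Gilt 01, with the highest SLCO2A1, also had the highest sum of endothelial markers (2020 CPM, against 299 and 462 CPM in the other pregnant S libraries and 280.3 to 489 CPM in control S), and the part of endothelium in the level was not tested. In LE the levels were 31.6, 13.9, 10.2 and 17.6 CPM in control and 47.0, 26.0, 31.5 and 28.5 CPM in pregnant gilts, overlapping through gilt 02 (log2 FC 0.83 ± 0.35, FDR = 0.11). GE libraries spread from 17.9 to 90.4 CPM in control and from 23.8 to 77.5 CPM in pregnant gilts, with no difference beyond this spread (0.10 ± 0.59, FDR = 0.98). ABCC4, the exporter, was at 241 to 327 CPM in control and 102 to 271 CPM in pregnant LE (log2 FC −0.40 ± 0.27, FDR = 0.32). In the libraries labelled S it was at 314, 149 and 315 CPM in control and 76.1, 152 and 46.9 CPM in pregnant gilts. Control gilt 04 and pregnant gilt 05 met, and the difference of −1.47 ± 0.50 was not called (FDR = 0.31). ABCC4 in GE went from 2.74 CPM (10 counts, control gilt 13) to 207 CPM (control gilt 06).

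The members were then compared between cell types in 1 fit of the 22 libraries over the 10643 genes listed in all tables. In control gilts none of 8 members was called between GE and LE, at an FDR below 0.01 at which 0.150% of genes were called. An unadjusted p below 0.05 was found for 6 of the 8 members and for 2258 of the 10643 genes. Within each of the 4 control gilts, LE exceeded GE in 6 members, among them PLA2G4A (1.32 to 5.18 times), PTGES (1.39 to 29.96 times), AKR1B1 (1.71 to 15.2 times) and HPGD (1.43 to 17.1 times). PTGS2 and ABCC4 were the others, with the largest ratios in gilt 13. The highest PTGES ratio rests on 3 counts in GE of that gilt. How many of all genes were higher in LE in every control gilt was not counted. SLCO2A1 took the other direction, its LE level being 0.349 to 0.582 times that of GE in the same gilt. When gilt entered as a random effect, 2 members passed against 4.83% of genes, namely PLA2G4A (log2 difference GE minus LE −1.66, FDR = 0.0098) and PTGES (−2.62, FDR = 0.0040). As a fixed effect no member passed, with 1.84% of genes called (PLA2G4A FDR = 0.020, PTGES FDR = 0.022), and without the libraries labelled S these values were 0.057 and 0.056. Between S and LE no member passed (0% of genes) or had a p below 0.05, and LE to S ratios within gilts were 0.956, 1.06 and 1.57 at the lowest, median and highest for HPGD. From GE to S again no member passed (0% of genes) while 4 of the 8 had a p below 0.05, as did 1209 of the 10643 genes. Over all 6 comparisons between cell types, in control and pregnant gilts together, the likelihood ratio test called 1 member and DESeq2 called 2, while over all genes they made 2456 and 2976 calls.

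In pregnant gilts 9.56% of genes were called between GE and LE, and none of the 8 members. A p below 0.05 was found for 4 of the 8 members and for 3672 of the 10643 genes. AKR1B1 was 3.88 to 10.2 times and PTGES 2.24 to 22.3 times as high in LE as in GE of the same gilt, in 4 of 4 gilts each. PTGS2 (1.14 to 8.01 times) and ABCC4 (1.39 to 7.05 times) were also higher in LE in 4 of 4 gilts. How many of all genes were so was not counted. The highest PTGES ratio rests on 3 counts in GE of gilt 14. When gilt entered as a fixed effect, AKR1B1 (log2 difference −2.82 ± 0.56, FDR = 0.0025) and PTGES (−2.42 ± 0.58, FDR = 0.0073) passed, against 15.8% of genes, and as a random effect PTGES alone did (−2.56, FDR = 0.0059, with 16.8% of genes called). After the 6 libraries labelled S were left out, the fixed effect still called AKR1B1 (−2.85, FDR = 0.0030) but not PTGES (−2.33, FDR = 0.029). HPGD, which was higher in LE than in GE of every control gilt, was so in 2 of 4 pregnant gilts (0.490 to 6.99 times). Between S and LE no member passed at 0.893% of genes called, and 3 of the 8 had a p below 0.05, as did 2829 of the 10643 genes. Between S and GE no member passed (0% of genes) or had a p below 0.05, which 270 genes had. PTGES2, fitted on LE and S alone, was lower in S of pregnant gilts by a log2 difference of −1.37 ± 0.35 that missed the threshold (FDR = 0.034).

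A call in 1 cell type and not in another does not show a difference, so the change with pregnancy was compared between cell types directly. No member passed between GE and LE, S and LE or S and GE (0% of genes called in each), and none passed with gilt as a fixed or random effect, by the likelihood ratio test or by DESeq2. Unadjusted p values were below 0.05 for PTGES3 between S and LE (−0.52 ± 0.20, FDR = 0.38) and for SLCO2A1 between S and GE (2.18 ± 0.75, FDR = 0.79). Of all 10643 genes, 1149 and 644 had a p below 0.05 in the same comparisons. The AKR1B1 change was smaller in GE than in LE by 0.98 ± 1.30 and in S than in LE by 1.86 ± 1.41 on the log2 scale, and the HPGD change differed by 0.83 ± 0.91 and −0.53 ± 0.98. With standard errors of this size, a difference of several fold in either direction could not have been told from none. The comparisons of a cell type with each of the others share its libraries.

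Beyond the members, 30 further genes of the pathway were listed in at least 1 table. In LE 7 of 28 were called higher and 1 lower in pregnant gilts, beside 6.33% of all genes called higher and 3.71% lower. The members and this list were chosen with earlier results of these data known, so their shares of calls do not test the pathway. For release of fatty acids, PLA2G15, a lysosomal phospholipase, rose from 4.205 ± 1.53 to 45.8 ± 11.5 CPM (SD, n = 4 each) with a log2 FC of 3.44 ± 0.32 (FDR = 0.00011), and HSD17B12, an enzyme of long-chain fatty acid elongation, from 95.1 ± 13.9 to 245 ± 90.4 CPM (1.35 ± 0.27, FDR = 0.0059). The HSD17B12 call held in 1 of 8 fits without single gilts, and 25.7% of its 50-base exon windows occur in LOC102168147 as well, so its counts are uncertain. PTGES3L, a relative of PTGES3, went from 6.35 ± 2.45 to 31.1 ± 8.76 CPM (2.25 ± 0.34, FDR = 0.0014). PTGR1, a reductase that acts on the product of HPGD, rose from 4.14, 9.80, 10.9 and 5.86 CPM to 51.8, 118, 48.4 and 19.6 CPM (2.93 ± 0.52, FDR = 0.0034), in the opposite direction to HPGD. Every pregnant library was above the controls, with gilt 14 the lowest. The call was lost without gilt 02, 04 or 13, and 36.7% of PTGR1 windows are shared with LOC110256066.

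ABCC1, an exporter of conjugated organic anions, rose in LE from 23.7, 35.1, 34.6 and 34.9 CPM to 461, 507, 318 and 124 CPM (log2 FC 3.44 ± 0.40, FDR = 0.00035). SLCO5A1, an organic anion transporter of the same family as SLCO2A1, was close to the detection floor in control LE (0, 4, 2 and 1 counts) and reached 181, 255, 263 and 14.9 CPM in pregnant gilts 01, 03, 05 and 14 (8.29 ± 1.02, FDR = 0.00047). It was also the only further pathway gene called in GE, of 26 (FDR = 0.14), beside 0.694% of all genes. There no control library had more than 3 counts and the pregnant mean was at least 22.9-fold higher than 3 counts per library. In the libraries labelled S it was at least 45.2-fold higher on the same reckoning (FDR = 0.13), a call lost without gilt 02, 04, 13, 01 or 05. Among 27 genes in S, where 1.47% of all genes were called, the other call was PTGDR2, a receptor for PGD, which fell from 41.3, 18.2 and 31.6 CPM to 4.66, 7.37 and 2.15 CPM (−2.65 ± 0.56, FDR = 0.13) and lost its call without gilt 02, 13, 01 or 14. Of its exon bases, 40.1% overlap CCDC86 on the opposite strand.

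Of the 7 receptor genes in LE, PTGER2, a receptor for PGE, fell from 73.7, 80.3, 111 and 111 CPM to 6.02, 10.1, 8.33 and 17.1 CPM (log2 FC −3.10 ± 0.30, FDR = 0.00014). Pregnant and control libraries were well separated. In GE the same gene was at 178, 263, 201 and 789.9 CPM in control and 460.5, 919.8, 840.2 and 261 CPM in pregnant gilts, overlapping and not called (0.79 ± 0.56, FDR = 0.75). PTGER2 was higher in GE than in LE of pregnant gilts by 5.84 ± 0.65 on the log2 scale (FDR = 5.71e-05), and higher in S than in LE by 4.83 ± 0.64 (FDR = 0.00064). The difference between its changes in GE and LE was 3.91 ± 0.78 and did not pass an FDR of 0.01 (FDR = 0.034, and 0.019 with gilt as a fixed effect). PTGFRN, a partner protein of the PGF receptor, rose in LE from 115 ± 25.3 to 408 ± 188 CPM (1.82 ± 0.32, FDR = 0.0034), a call lost without gilt 04, 06 or 13. PTGFR, the PGF receptor itself, was at 50.9 ± 20.1 and 9.95 ± 8.71 CPM and was not called (−2.24 ± 0.56, FDR = 0.018). Its groups did not overlap, and it was called without gilt 14. The median log2 FC of the 28 genes in LE was 0.37, of the 26 in GE 0.30 and of the 27 in S 0.63, beside 0.01, −0.02 and 0.08 over all genes.

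Between GE and LE of pregnant gilts, 8 of 25 further pathway genes were called, beside 9.56% of all genes. PLA2G15 (log2 difference −2.40 ± 0.36, FDR = 0.00041), HSD17B12 (−1.38 ± 0.26, FDR = 0.0017), PTGR1 (−2.12 ± 0.53, FDR = 0.0080), ABCC1 (−2.62 ± 0.62, FDR = 0.0063) and PTGFRN (−1.76 ± 0.39, FDR = 0.0045), which rose with pregnancy in LE, were lower in GE. PTGER2 was higher in GE, as were SLCO3A1, a prostaglandin carrier (3.23 ± 0.70, FDR = 0.0037), and PTGDR, a PGD receptor (2.68 ± 0.56, FDR = 0.0030). The exons of PTGER2 and PTGDR overlap by 125 bases on the same strand, and their means in pregnant GE were 620 and 27.2 CPM. Part of the PTGDR counts could therefore be reads of PTGER2, which was not tested. SLCO3A1 held 63.3, 108, 53.3 and 231 CPM in GE and 22.9, 4.78, 11.4 and 12.4 CPM in LE of pregnant gilts 01, 03, 05 and 14. Control gilts did not overlap either, with 47.8 to 179 CPM in GE and 5.26 to 10.3 CPM in LE (3.49 ± 0.69, FDR = 0.013). In control gilts none of the 25 was called between GE and LE, beside 0.150% of all genes, and the difference between the 2 states passed for none of them.

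**Figure D5:**
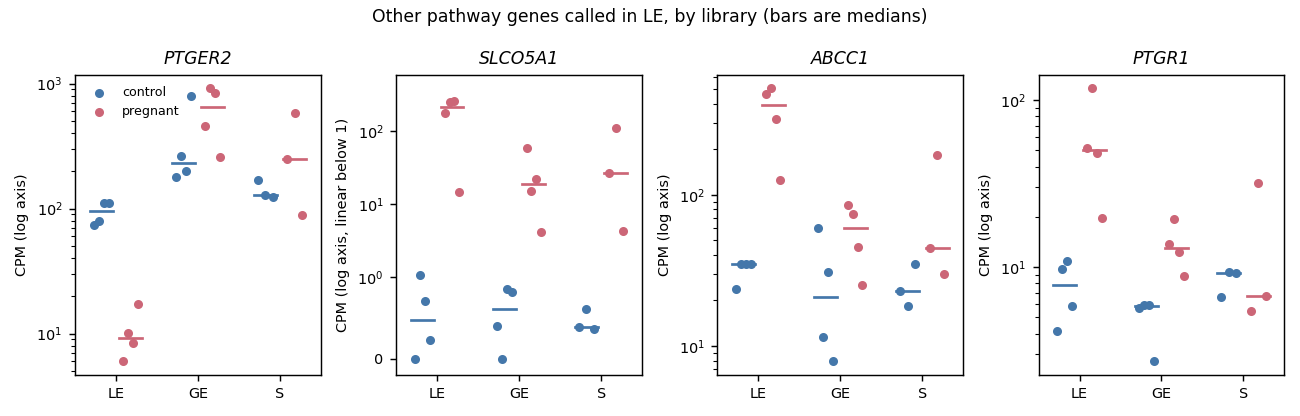
CPM (log axes, linear below 1 for SLCO5A1) of PTGER2, SLCO5A1, ABCC1 and PTGR1 in each library by cell type, control in blue and pregnant in red, with bars at the medians. In pregnant LE, PTGER2 lies at 6.02 to 17.1 CPM, below its controls, and the other 3 genes lie above theirs.

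Of the 10642 other genes listed in all tables, those whose log2 CPM followed AKR1B1 most closely over the 22 libraries were TRPV6 (r = 0.963), TRPV5 (r = 0.952) and TMEM79 (r = 0.944). For HPGD they were ZNF608 (r = 0.964), C10H9orf72 (r = 0.955) and CDH17 (r = 0.952), and for SLCO2A1 they were COPA (r = 0.855), GAB2 (r = 0.846) and TMEM214 (r = 0.834). Among the members, PTGES and ABCC4 (r = 0.849), PTGS2 and ABCC4 (r = 0.838) and PLA2G4A and PTGS2 (r = 0.832) varied most alike, while AKR1B1 and HPGD had r = −0.40. These correlations are descriptions over libraries that share gilts, cell types and the change with pregnancy.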

How the data were processed

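Total RNA of LCM samples was amplified into single-read libraries (Ovation SoLo). The authors clipped adapters, mapped the reads with Hisat2 to Sscrofa11.1, removed PCR duplicates with the help of random adapter bases and dropped genes of low CPM. Whole-number read counts per NCBI gene, not normalized, were deposited by the authors in a separate table for LE, GE and S. The counting tool and its use of strand are not given in the sources used here. A gene absent from a table was treated as not analysed there.

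The libraries of a cell type were fitted separately from the others in edgeR 4.0.16 (R 4.3.3), using TMM size factors and the quasi-likelihood F test over all listed genes, with FDR by Benjamini-Hochberg. SE is the absolute log2 FC divided by the square root of F. The thresholds, an FDR below 0.01 in LE and p below 0.0021 in GE and S, are those of the study, and joint fits used an FDR below 0.01. The study took 0.0021 because it matched an FDR of 0.01 in its own LE test. In the LE fit here a p of 0.0021 has an FDR above 0.01, so the GE and S threshold is laxer than that rule. CPM values are on 1 scale from TMM over the 10643 common genes. A level of 3 counts, 0.703 to 3.61 CPM depending on the library, was taken as the floor, and covers counting error only. Since each gilt gave 1 library per cell type, p values of the separate fits measure the spread between gilts, including that of capture and amplification. The main joint fit treats the 22 libraries of the 8 gilts as independent, so its p values leave out that libraries share a gilt.

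Same-numbered libraries come from the same gilt. For LE and GE, deviations from the group means had a median correlation of 0.257 within gilts, exceeding 0.1 in 6 of 8. For LE and S the median was 0.314 (6 of 6 exceeded 0.1), and for GE and S it was 0.468 (5 of 6). The gilt was added to the joint fit as a fixed block in edgeR or a random block with limma 3.58.1 (consensus correlation 0.268). Alternatives were RLE or no size factors, filters on low counts, the exact and likelihood ratio tests, DESeq2 1.42.0, other thresholds, fewer gilts and the longest transcript as gene length. A joint fit of the 16 LE and GE libraries was added after the markers of the S libraries had been seen.

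The members and the lists of pathway and marker genes were chosen with earlier results of these data known. All members are named, as are pathway genes called in a cell type or for a change that differed between cell types, the 3 genes most like each called member, and PTGFR, SLCO3A1 and PTGDR, which were named after their values were seen. Symbols, positions and start windows come from the NCBI annotation of Sscrofa11.1. The procedure was checked on simulated counts.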

Additional observations from a re-analysis of the deposited data

Results flagged for a closer look

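In groups of 4 libraries, the highest or lowest level of a member was compared with the other 3 by the gap to its nearest neighbour over the whole range. A gap above the usual critical value of Dixon was found in 4 of 34 groups. That value is made for independent groups with a normal spread. These groups share libraries and the CPM were not log-transformed, so the count cannot be set against chance. In control GE, gilt 06 stood apart with 172 CPM of PLA2G4A (605 counts), against 50.3 to 64.6 CPM in the other 3 gilts. The same library had 177 CPM of AKR1B1 (624 counts), against 14.5 to 41.0 CPM. Over 10643 genes it was most like the LE library of its own gilt (r = 0.950), with r = 0.921 to the nearest of the other control GE libraries. HPGD was at 228 CPM (719 counts) in pregnant LE of gilt 14 and at 25.3 to 54.2 CPM in the other pregnant gilts. PTGES3 was at 193 CPM (618 counts) in pregnant GE of gilt 03, below the 229.6 to 235 CPM of the others. The cause of these values was not tested.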

How the results depend on the processing

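The smallest total of a single library was that of LE of pregnant gilt 01 (893912 counts). PTGES and PTGS2 had as few as 3 counts and 1 count in single GE libraries, and S rests on 3 against 3 gilts. With library size alone the median log2 FC over all LE genes was −0.14, against 0.01 with TMM, and the member calls were kept. RLE size factors, library size alone, filterByExpr and a minimum of 10 counts in every library left the number of member calls at 2 in LE, 0 in GE and 2 in S. Over all genes, calls in LE (1146) became 1990 with the exact test, 2072 with the likelihood ratio test, 2182 with DESeq2, 2557 at an FDR of 0.05 and 435 in the 6 gilts with an S library. In GE (81) they became 50 with at least 10 counts, then 174, 185 and 241 by the 3 other tests, 2 at an FDR of 0.05, 1 at 0.01 and 35 in the 6 gilts. In S (170) they became 428, 463 and 512, and 29 and 0 at an FDR of 0.05 and 0.01.

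Member calls in LE (2) became 4 at an FDR of 0.05 (PTGES and PTGES3 added) and 1 in the 6 gilts, where HPGD was lost (log2 FC −2.74). In GE (0) they became 1 with the exact or likelihood ratio test or in the 6 gilts, and 2 with DESeq2. In S (2) they became 4 with the likelihood ratio test or DESeq2, and 0 at an FDR of 0.05 or 0.01. Without each gilt in turn, member calls were 1 to 2 in LE, 0 to 1 in GE and 1 to 3 in S, and calls over all genes 588 to 1643, 42 to 100 and 65 to 221.

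Differences between cell types, summed over 6 comparisons, gave 0 member calls and 1129 calls over all genes. With the gilt as a fixed replicate block these were 2 and 2210, and as a random replicate block 3 and 2822. They were 1 and 2456 with the likelihood ratio test, 2 and 2976 with DESeq2, and 2 and 3668 at an FDR of 0.05. Without each gilt they were 0 to 2 and 182 to 1073, the 2 being PTGES and ABCC4 between GE and LE of pregnant gilts without gilt 13. For the change with pregnancy compared between cell types, 0 calls over all genes became 44 with the fixed and 41 with the random replicate block, 1 with RLE size factors or library size alone, 96 with the likelihood ratio test, 132 with DESeq2, 43 at an FDR of 0.05 and 0 to 47 without each gilt, with 0 member calls in each of these. Without the S libraries, GE and LE differed in 78 of 10851 genes in control and 1077 in pregnant gilts, with 0 members called unblocked. With the longest transcript as length, the order of levels changed in 2 of the 6 groups.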

Other observations

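Gilt 14 had the lowest AKR1B1 of the pregnant gilts in each cell type, with 1661, 163 and 173 CPM in LE, GE and S. SLCO5A1 was also lowest in this gilt, with 14.9, 4.25 and 4.29 CPM, as was ABCC1 with 124, 25.2 and 29.7 CPM. PTGFRN followed the same order, with 212, 61.6 and 80.0 CPM. PTGR1 was lowest in gilt 14 in LE (19.6 CPM) and GE (8.86 CPM) but not in S (6.74 CPM, against 5.43 CPM in gilt 01). PTGS2 and PLA2G4A took another order, since gilt 14 had the highest level of the pregnant gilts in LE (581 and 298 CPM). These orders were seen in the data and were not tested.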
